A study of Mus musculus with 36 samples.

Results

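Complement is a group of plasma and membrane proteins that mark, clear and lyse targets. The transcripts of 35 complement genes were followed in developing mouse liver, chosen by gene symbol from a list of complement components, regulators and receptors. Of these, 34 were measured and 32 passed the filter for testing (a mean of at least 1 FPKM, fragments per kilobase of transcript per 1000000 mapped, in at least one age), out of 21889 symbols measured and 11149 tested. C7 was not analysed here, and the receptor Cr2 and the membrane regulator Cd46 were below the filter. Livers came from 36 male C57BL/6 mice (C57BL/6J in the study's methods), 3 at each of 12 ages, without any treatment or altered allele. The ages were GD17.5 (late gestation), Day 0 (taken right after birth, before the pups had suckled), Days 1, 3, 5, 10, 15 and 20 (suckling) and Days 25, 30, 45 and 60 (after weaning at 21 days). Polyadenylated RNA of each liver was sequenced as 1 library. All groups are whole liver of 1 sex and 1 strain, and the fetal liver is also a blood-forming organ, so cell mixtures differ between ages.

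Complement is started along 3 routes. In the classical route C1q binds antibody or other targets and its partner proteases C1r and C1s cut C4 and C2. In the lectin route mannose-binding lectins, collectins and ficolins bind sugars and the MASP proteases cut the same substrates, whereas the alternative route uses factor B, factor D and properdin. All meet at the cleavage of C3 and continue to C5, encoded by Hc in the mouse, and to C6, C7, C8 and C9, which form the membrane attack complex. Hepatocytes make most of the plasma components, whereas C1q, properdin and the ficolins of the mouse are mainly products of macrophages and other myeloid cells. The members were therefore placed in classes by known source: 20 hepatocyte-made genes, 6 macrophage- or myeloid-made genes (C1qa, C1qb, C1qc, Fcna, Fcnb and Cfp), 6 receptors and membrane regulators (C3ar1, C5ar1, Cr2, Cd55, Cd46 and Cd59a) and 3 genes of another source (C7, Cfd and Colec11).

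The sequences just upstream of the start site are given for 5 members, to set macrophage-made genes beside hepatocyte-made genes of contrasting course. C1qb and C1qc encode chains of the same C1q molecule, C3 is the most abundant member, and C4bp and C9 had some of the largest rises. Each is the 250 bases before the RefSeq start on GRCm38.p6, 5′ to 3′ on the strand of the gene: C1qb at chr4:136886201-136886450 (minus strand), C1qc at chr4:136892915-136893164 (minus strand), C3 at chr17:57228137-57228386 (minus strand), C4bp at chr1:130661619-130661868 (minus strand) and C9 at chr15:6445096-6445345 (plus strand). Capitals mark matches, on either strand, to the core GAGGAA of PU.1 (C1qb and C1qc), to the letters TTGCNNAA of C/EBP factors (C3 and C9) or to the letters GTTAATNAT of HNF1 (C4bp).
C1qb: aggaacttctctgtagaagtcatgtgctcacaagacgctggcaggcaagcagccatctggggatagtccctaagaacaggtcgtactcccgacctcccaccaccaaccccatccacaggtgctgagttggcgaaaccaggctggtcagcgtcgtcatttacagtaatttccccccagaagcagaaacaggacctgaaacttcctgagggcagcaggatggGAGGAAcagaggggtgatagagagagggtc
C1qc: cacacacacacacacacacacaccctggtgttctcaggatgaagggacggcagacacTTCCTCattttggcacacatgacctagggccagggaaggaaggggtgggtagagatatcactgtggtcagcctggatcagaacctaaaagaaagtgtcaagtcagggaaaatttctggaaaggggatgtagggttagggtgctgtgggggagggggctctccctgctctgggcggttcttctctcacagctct
C3: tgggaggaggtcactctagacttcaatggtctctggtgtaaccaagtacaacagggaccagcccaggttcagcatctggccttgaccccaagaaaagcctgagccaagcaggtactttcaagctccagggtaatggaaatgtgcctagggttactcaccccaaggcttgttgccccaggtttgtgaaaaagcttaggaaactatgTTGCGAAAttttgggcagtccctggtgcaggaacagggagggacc
C4bp: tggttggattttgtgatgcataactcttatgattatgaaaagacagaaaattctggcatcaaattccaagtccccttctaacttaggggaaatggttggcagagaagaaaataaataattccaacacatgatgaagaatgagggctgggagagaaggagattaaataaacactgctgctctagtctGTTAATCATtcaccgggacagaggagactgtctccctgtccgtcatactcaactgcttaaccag
C9: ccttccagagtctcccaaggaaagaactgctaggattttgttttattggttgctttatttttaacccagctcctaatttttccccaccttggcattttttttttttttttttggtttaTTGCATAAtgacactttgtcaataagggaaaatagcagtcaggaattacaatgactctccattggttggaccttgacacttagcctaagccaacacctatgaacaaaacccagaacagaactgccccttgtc
Of the 35 listed members, 26 had an entry in the promoter table, and C1qa, C1s, C2, C4b, Cfb, Masp1, Cfi, Serping1 and Clu were without one. The PU.1 core was present in 3 of 5 macrophage- or myeloid-made members with an entry (C1qb, C1qc and Fcna), while 12 hepatocyte-made members with an entry had no match. It was in 23.3% of the 32851 promoter entries counted, which did not cover every chromosome. Members were counted by gene, and 1 had more than 1 entry. Of the 12 hepatocyte-made members, the C/EBP letters were in 2, C3 and C9, and also in Fcnb (9.56% of the entries counted). The HNF1 letters were in 2, C4bp and Hc (0.737%), the STAT letters TTCNNNGAA in 2, C8a and Masp2 (7.02%), and TATAAA in 1, Hc (12.4%). The 5 sequences shown all hold a match, whereas Cfp, C8b, C6 and Mbl2 held none, although C6 and Mbl2 rose 117 and 77.6 times in FPKM between GD17.5 and Day 60. The HNF4 letters CAAAGTCCA (0.384% of the entries counted) were in no member of either class. A match is a run of letters, not a measured site.

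Replicates were alike over all tested genes (median Pearson r across genes 0.978 over 36 pairs, lowest 0.952). The deposited values carry no counts, so the depth of each library was not read from them, but from the steps of the low values the libraries had relative depths of 0.885 to 1.16. Summed markers of other organs passed a set limit in 6 libraries (muscle over 100 or pancreas over 3000 FPKM). It was skeletal muscle in Day 0 mouse 1, and exocrine pancreas in Day 0 mouse 3, Day 15 mouse 3, Day 20 mouse 2, Day 45 mouse 1 and Day 60 mouse 1. Below the limit, pancreas markers still summed to 143 to 1123 FPKM in most other mice of Days 0 to 15. At GD17.5 they summed to at most 2.09 FPKM. Libraries of one age also differed by transcript length. In Day 30 mouse 1, Day 25 mouse 2 and Day 45 mouse 3, log2 expression fell by 0.31, 0.24 and 0.17 per doubling of length. These slopes are relative to the mean of all 3 mice of that age. The largest slope the other way was a rise of 0.17 in GD17.5 mouse 1. All 5 hepatocyte markers (Ttr, Apoa2, Tat, Cyp2e1 and Serpinc1) were detected, with summed levels of 3674 to 22270.2 FPKM per mouse.

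Complement transcripts of the liver shifted from myeloid toward hepatocyte products with age. Summed over the 20 hepatocyte-made genes, levels were 353, 409 and 346 FPKM in the GD17.5 mice, 1466, 1242 and 1188 at Day 0 and 5242, 5448 and 5464 at Day 60. The sum of the 6 macrophage- or myeloid-made genes was 144, 217 and 225 FPKM at GD17.5, 351, 349 and 429.7 at Day 1 and 77.3, 99.2 and 98.9 at Day 60. Hepatocyte-made transcripts of every Day 60 mouse were above those of every GD17.5 mouse, and macrophage-made transcripts of every Day 60 mouse were below them. Within a mouse, the hepatocyte-made sum exceeded the macrophage-made sum 1.95 ± 0.461 times at GD17.5, 6.38 ± 0.978 times at Day 0, 15.8 ± 4.15 times at Day 10 and 59.3 ± 7.33 times at Day 60 (mean ± SD, n = 3). C3 alone gave 19.9% ± 3.17 of the hepatocyte-made sum at GD17.5 and 38.8% ± 2.63 at Day 20 (SD, n = 3), yet the sum without C3 also climbed, from 295 ± 25.4 to 3784 ± 118 FPKM at Day 60. The 6 receptors and membrane regulators together stayed low, at 23.5 ± 1.95 FPKM at GD17.5 and 11.7 ± 3.18 at Day 60. Most of this sum was Cd59a alone, at 19.3 ± 2.51 and 10.3 ± 3.08 FPKM. In bulk liver, fewer cells of a type and less RNA per cell cannot be told apart.

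**Figure D1:**
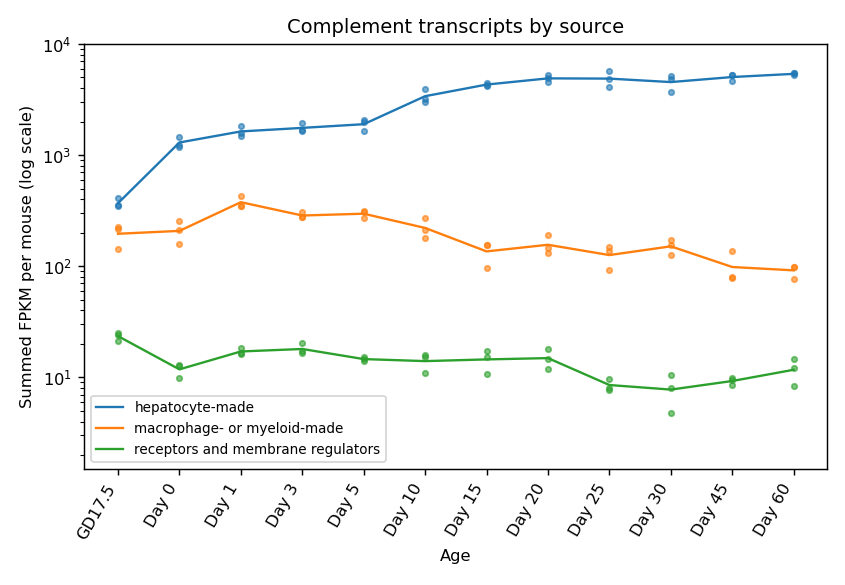
Summed FPKM per mouse (vertical axis, log scale) of hepatocyte-made, macrophage- or myeloid-made and receptor or membrane regulator members at the 12 ages (horizontal axis); points are mice and lines join the means of 3 mice. The hepatocyte-made sum rises from 369 FPKM at GD17.5 to 5385 at Day 60, and the macrophage- or myeloid-made sum peaks at Day 1 at 377. The receptor or membrane regulator sum, mostly Cd59a, stays between 7.76 and 23.5.

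Adult and fetal liver were compared to ask which components are low before birth. Between GD17.5 and Day 60, 22 of 32 tested members were higher and 8 were lower, where 18.6% of all tested genes were higher and 56.4% lower. One of the 22, Cfd, was tested and called only through Day 60 mouse 1. The median difference on the log2(FPKM + 1) scale was 2.60 over the members and -0.56 over all genes. All 20 hepatocyte-made genes passed as higher, with a median of 3.62 and all 3 adult mice above all 3 fetal mice in each, although Masp1 was at the threshold (adjusted p = 0.0499) and lost its call under several alternatives. Among macrophage- or myeloid-made genes 5 of 6 fell (median -0.91), and among receptors and membrane regulators 3 of 4 fell (median -0.86). The median of all genes was itself below 0: under upper quartile scaling of the libraries, C1qb (-0.32), C1qc (-0.32), Fcna (-0.25) and Cd59a (-0.32) no longer passed the test, while the median of all genes moved to -0.15. Over the same ages all 5 hepatocyte markers rose, all 6 erythroid markers and all 9 neutrophil and myeloid precursor markers fell, and 6 of 8 Kupffer cell and macrophage markers fell. The erythroid markers summed to 1549 to 1734 FPKM in fetal mice and to 65.9 to 72.3 in adults. Their part in the differences of the members was not tested.

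**Figure D2:**
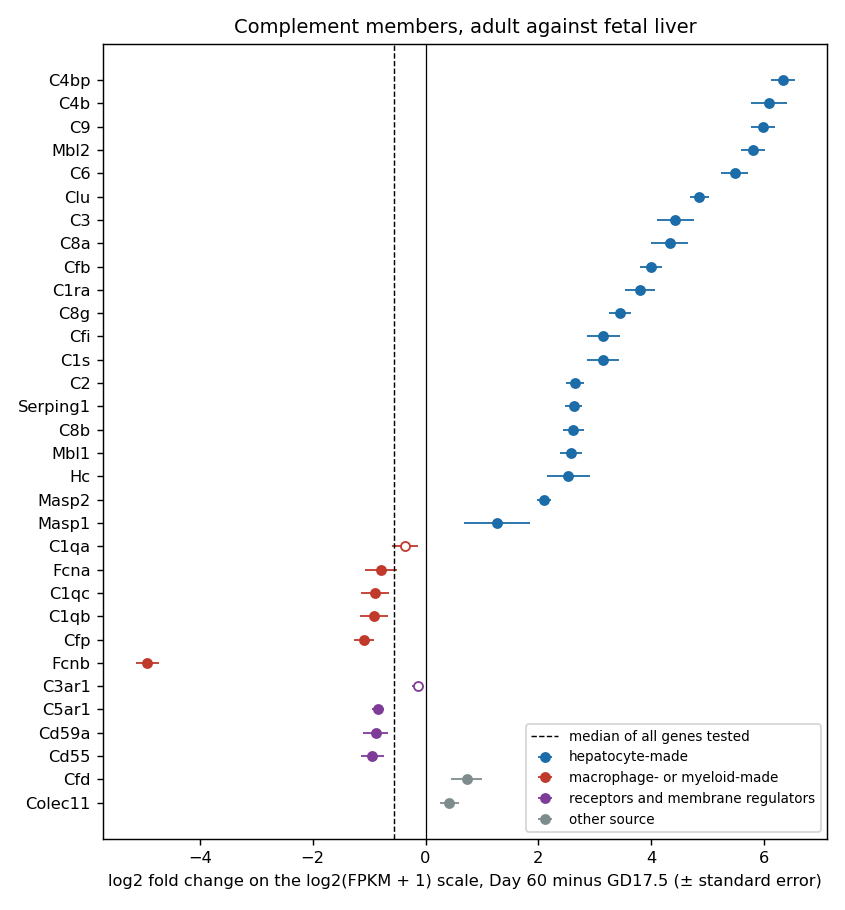
Difference between Day 60 and GD17.5 on the log2(FPKM + 1) scale (horizontal axis, bars are standard errors of the limma fit) for the 32 tested members (vertical axis), coloured by class; filled points passed the test and open points did not. All hepatocyte-made genes lie between 1.27 and 6.33, and the dashed line marks the median of all genes at -0.56.

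Set against Day 60, 31 of 32 members passed at one or more other ages, near the 90.7% of all tested genes. The exception was Masp1 (smallest adjusted p = 0.0848). C6 differed from Day 60 at 11 ages, and C8a, C9 and Cfp at 10. By contrast, Cd55 and Cd59a differed at 2 ages. The highest age fell within GD17.5 to Day 5 for 6 of 6 macrophage- or myeloid-made genes and 4 of 4 tested receptors and membrane regulators, as for 78.7% of all tested genes. Among hepatocyte-made genes 5 were highest in Days 10 to 20 (7.34% of all genes) and 15 in Days 25 to 60 (14% of all genes).

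The recognition molecules of the classical route, the C1q chains, peaked on the first day of suckling. C1qa was at 26.7, 34.5 and 38 FPKM in the GD17.5 mice, 48.1, 37.9 and 30.3 at Day 0, 76.1, 72.2 and 99.7 at Day 1 and 21.5, 26.1 and 28.9 at Day 60. The Day 1 mice thus stood above all mice of Day 0, while fetal and adult mice overlapped. C1qb moved from 86.7, 64.7 and 50.2 FPKM at Day 0 to 107, 107 and 133 at Day 1 and then to 23, 30.9 and 28.1 at Day 60. All 3 chains rose from Day 0 to Day 1, C1qa by 1.08 ± 0.23, C1qc by 1.00 ± 0.25 and C1qb by 0.80 ± 0.25 on the log2 scale (± SE, adjusted p = 0.000753, 0.00339 and 0.0175). The rise of C1qb was lost without Day 0 mouse 3 (0.61, adjusted p = 0.124) or Day 1 mouse 3 (0.70, adjusted p = 0.0614). Their genes lie side by side on chromosome 4 (mm9), C1qb at chr4:136436044-136442102, C1qc at chr4:136445719-136448980 and C1qa at chr4:136451832-136454718, all on the minus strand. The ratio of C1qb to C1qa within a mouse was 1.72 ± 0.0734 at Day 0 and 1.07 ± 0.106 at Day 60, and that of C1qc to C1qa 1.21 ± 0.0598 and 0.841 ± 0.0489 (mean ± SD, n = 3). The 3 chains therefore did not keep 1 ratio, with the mice of Day 0 and Day 60 apart in both.

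Properdin and the ficolins are the other myeloid products. Cfp encodes properdin, which stabilises the alternative C3 convertase, and was at 21.7, 22.2 and 16.3 FPKM at Day 0, 46.6, 48.2 and 50.5 at Day 1 and 9.94, 11.4 and 13.6 at Day 60. It rose by 1.24 ± 0.18 from Day 0 to Day 1 (adjusted p = 4.38e-06), and the Day 60 mice were below the GD17.5 mice (-1.09 ± 0.18, adjusted p = 2.35e-06). Fcna, ficolin A, went from 7.07, 6.74 and 3.75 FPKM at Day 0 to 20.1, 17.6 and 18.7 at Day 1. Its mice did not overlap between these days (1.57 ± 0.29, adjusted p = 0.000193). Fcna also fell from GD17.5 to Day 0 (-0.82, adjusted p = 0.0191), a call lost without GD17.5 mouse 2 or mouse 3 or without Day 0 mouse 3, and from GD17.5 to Day 60 (-0.79, adjusted p = 0.0162), a call lost without GD17.5 mouse 2 or mouse 3 or Day 60 mouse 1.

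Fcnb, ficolin B of neutrophils and their precursors, behaved apart from the other members of its class. It was at 20.3, 35.4 and 36.1 FPKM at GD17.5, 31.5, 32.3 and 22.9 at Day 0, 15.4, 18.7 and 16.8 at Day 1 and 1.17, 3.35 and 3.02 at Day 10. At Day 60 it was listed at 0 in 2 mice and at 0.0114 in the third. It fell from Day 0 to Day 1 by 0.73 ± 0.20 on the log2 scale (adjusted p = 0.00811), a call lost with a pseudocount of 0.1 (adjusted p = 0.0963). With the libraries that held muscle or pancreas transcripts left aside the difference was -0.90, which cannot be weighed with 1 Day 0 mouse. Fcnb was lower at Day 60 than at GD17.5 (-4.93 ± 0.20, adjusted p = 8.19e-19). Elane and Mpo, granule genes of neutrophil precursors, also passed as lower at Day 1 than at Day 0 and at Day 60 than at GD17.5. Elane was at 162 ± 42.4 FPKM in fetal mice and 238 ± 42 at Day 0, then 95.6 ± 15.2 at Day 1 and 14.2 ± 8.18 at Day 10, and finally 0.0591 ± 0.0642 at Day 60. The ratio of Fcnb to Elane was 0.189 ± 0.0375 in fetal mice and 0.126 ± 0.0422 at Day 0, and on Days 1, 3, 5, 10 and 15 it was 0.178 ± 0.0108, 0.122 ± 0.0121, 0.146 ± 0.0278, 0.185 ± 0.0414 and 0.112 ± 0.079 (mean ± SD, n = 3). Summed over the 9 markers of neutrophils and their precursors, levels were 1898 to 3610.3 FPKM in fetal mice and 1.4 to 2.76 in adult mice.

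**Figure D3:**
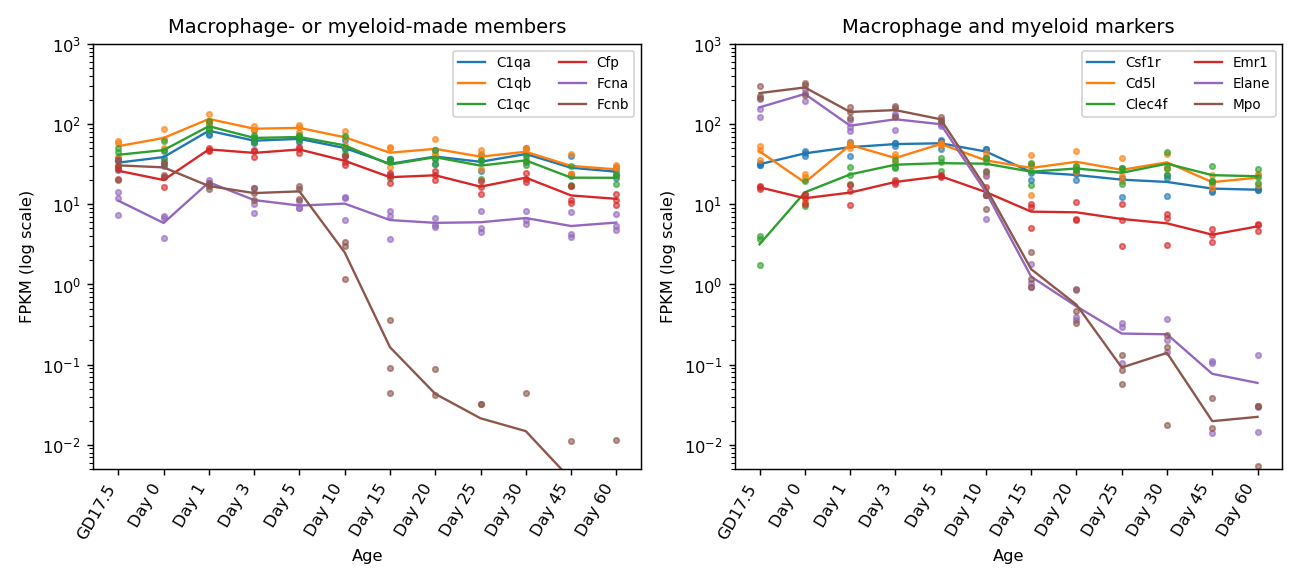
FPKM (vertical axes, log scale) of the 6 macrophage- or myeloid-made members (left) and of 6 markers of macrophages and neutrophil precursors (right) at the 12 ages; points are mice, lines are means of 3 mice, and values at 0 are not drawn. The C1q chains, Cfp and Fcna peak at Day 1, while Fcnb, Elane and Mpo drop between Day 5 and Day 15.

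Macrophage markers moved with the C1q group at Day 1. From Day 0 to Day 1, 5 of 8 tested Kupffer cell and macrophage markers rose, where 23.7% of all tested genes did (Marco by 2.26, Cd5l by 1.58, Folr2 by 1.21, Timd4 by 0.92 and Clec4f by 0.73), while Csf1r (0.24, adjusted p = 0.406) did not pass. The summed markers were at 95.3 to 126 FPKM per mouse at Day 0 and 169 to 210 at Day 1. Their part in the rise of C1q was not tested. Clec4f, the lectin of resident Kupffer cells, was at 1.76, 4.06 and 3.7 FPKM in fetal mice and at 18.2, 27.5 and 21.6 in adult mice, above the fetal mice in all 3, whereas C1qb and C1qc were lower in the adults. Of the 8 tested markers, 2 were higher at Day 60 than at GD17.5 and 6 were lower, so ratios to C1qa depended on the marker. The ratio of C1qa to Clec4f was 11.3 ± 3.48 in fetal mice, 3.65 ± 1.04 at Day 1 and 1.16 ± 0.196 at Day 60 (mean ± SD, n = 3). At the same ages the ratio of C1qa to Cd68 went the other way, at 2.15 ± 0.586, 4.09 ± 1.15 and 5.31 ± 0.265. That of C1qa to Csf1r was 1.05 ± 0.218, 1.69 ± 0.682 and 1.68 ± 0.257.

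The mannose-binding lectins were hepatocyte products with unequal timing. Mbl2, which encodes MBL-C, was at 1.7, 2.51 and 3.38 FPKM at GD17.5, 65.5, 37.1 and 39.9 at Day 0 and 146, 203 and 239 at Day 60. It was raised at Day 0 by 3.76 ± 0.21 (18.8 times in FPKM, adjusted p = 1.13e-14), more than any other member at birth. Mbl1, which encodes MBL-A, was already at 20.5, 31.7 and 29 FPKM at GD17.5 and reached 37.7, 48.3 and 42.1 at Day 0 (0.65 ± 0.20, adjusted p = 0.00716), a call lost without GD17.5 mouse 1 (0.47, adjusted p = 0.071). The ratio of Mbl2 to Mbl1 within a mouse therefore went from 0.0928 ± 0.0207 at GD17.5 to 1.15 ± 0.516 at Day 0 and was 1.2 ± 0.279 at Day 60 (mean ± SD, n = 3). Colec11, a soluble collectin, was at 6.84, 7.99 and 7.81 FPKM at GD17.5, 28.1, 25.2 and 30 at Day 10 and 7.74, 11.6 and 12.5 at Day 60. It rose from Day 0 to Day 1 (0.73 ± 0.17, adjusted p = 0.00201). Its difference between GD17.5 and Day 60 was small (0.42 ± 0.17, adjusted p = 0.0284) and was lost without GD17.5 mouse 1 or without Day 60 mouse 2 or mouse 3.

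Of the proteases that follow recognition, C1ra, C1s and Masp2 rose at birth, and Masp1 did not pass there (0.31 ± 0.58, adjusted p = 0.678). C1ra was at 4.25, 4.9 and 4.22 FPKM at GD17.5, 13.6 ± 3.71 at Day 0 (mean ± SD, n = 3) and 79.2, 77.6 and 68.6 at Day 60, and its partner C1s went from 8.03, 10.7 and 6.23 to 20.3, 17.4 and 12.9 and to 93.4, 86.1 and 64. Both rose at birth (1.39 ± 0.26 and 0.94 ± 0.28) and over the whole period (3.80 ± 0.26 and 3.15 ± 0.28, adjusted p = 8.93e-14 and 4.78e-11). These genes overlap their near copies C1rb and Gm5077, so reads could have been split between them. Masp2, the protease that cuts C4 and C2 in the lectin route, was at 30.2, 33 and 29.7 FPKM at GD17.5, 56.1, 51.9 and 64.6 at Day 0 and 131, 131 and 149 at Day 60. It rose at birth by 0.87 ± 0.13 (adjusted p = 5.15e-06) and by 2.10 ± 0.13 in all. Masp2 overlaps Tardbp on the other strand, and the library kit did not mark strand. Masp1 gave no firm difference: it was at 11.8, 5.41 and 5.41 FPKM at GD17.5 and 22.4, 19.2 and 14.8 at Day 60 (1.27 ± 0.58, adjusted p = 0.0499). Over the alternatives that p ran from 0.000127, with the trend with length and GC content removed (1.88), to 0.152, with the 6 libraries that held muscle or pancreas transcripts left aside (1.14).

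C3, on which all routes converge, gained more FPKM at birth than any other member. It was at 79, 85.9 and 56.5 FPKM at GD17.5, 516, 404 and 360.2 at Day 0, 2048, 1717 and 1936 at Day 20 and 1379.7, 1607 and 1815 at Day 60. All Day 0 mice were above all fetal mice (5.78 times in FPKM, log2 difference 2.52 ± 0.32, adjusted p = 3.13e-07). In between, C3 was at 621, 378 and 331 FPKM at Day 3 and 459, 298 and 338 at Day 5, overlapping Day 0, before the mice of Day 10 reached 851 to 1529.6. After weaning its mice spread widely. At Day 30 mouse 1 had 469.9 FPKM beside 1507 and 1364, and at Day 25 mouse 2 had 1093 beside 1803 and 2261. These are the libraries in which long transcripts were low, and C3 has a long transcript (5132 bases). Masp1 (5133 bases), at 1.93, 15.8 and 18 FPKM at Day 30, and Hc (5445 bases), at 16.5, 47 and 33.8, were low in the same mouse. The part of this length trend in the spread of C3 was not tested.

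C4b, which encodes C4, was almost silent before birth, at 1.38, 2.54 and 0.973 FPKM. It reached 18.8, 18.9 and 23.8 FPKM at Day 0 (3.07 ± 0.32, adjusted p = 8.72e-09) and 198, 193 and 132 at Day 60 (6.08 ± 0.32, 107 times in FPKM). Its near copy C4a was at 0.266 ± 0.0712 FPKM at GD17.5 and 38 ± 30.2 at Day 60 (mean ± SD, n = 3), and reads may have been split between the pair. Within a mouse C4b exceeded C4a 7.64, 12.2 and 1.83 times at Day 60, a wide spread beside 2.15, 2.07 and 2.06 times at Day 25. Cfb, factor B of the alternative convertase, was at 21.2, 36.1 and 21.3 FPKM at GD17.5 and 141, 112 and 90 at Day 0. It rose at birth (2.11 ± 0.19, adjusted p = 9.52e-10), rose again by Day 1 (0.87 ± 0.19, adjusted p = 0.00137) and was highest at Day 15, at 549, 617 and 617 FPKM. Its neighbour C2, which takes the same place in the classical convertase, rose less, from 6.38, 6.79 and 5.78 FPKM to 12.1, 14.4 and 11.6 at birth (0.90 ± 0.16) and to 41.2, 44 and 49.5 at Day 60. C2 and Cfb lie next to each other on chromosome 17 and share an annotated joined gene, Gm20547, so reads could have been split among them.

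Factor D, encoded by Cfd, is the protease that activates factor B and is made mainly by fat cells. It was at or below 0.0286 FPKM in every mouse from GD17.5 to Day 10, and at 3.17, 0.121 and 0 FPKM at Day 60. Only the Day 60 mean (1.1 FPKM) reached the filter for testing, through mouse 1. The call between GD17.5 and Day 60 (0.73 ± 0.27, adjusted p = 0.0187) also rested on Day 60 mouse 1, and without it the difference was 0.07 (adjusted p = 0.663). That library also held the most transcripts of exocrine pancreas (15513 FPKM in sum) and of the fat cell gene Adipoq (0.786 FPKM, against 0 in the other Day 60 mice). The summed adipocyte markers were at most 1.18 FPKM in any mouse.

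Components of the membrane attack complex came up at different ages. C5, encoded by Hc, was at 13.4, 7.89 and 7.69 FPKM at GD17.5, 10.4, 7.97 and 6.78 at Day 0, 22.8, 20.1 and 14.8 at Day 1 and 69.6, 59.8 and 48.4 at Day 60. It rose on the first day of suckling (1.11 ± 0.38, adjusted p = 0.0259), a call lost without Day 0 mouse 2 or mouse 3 or without Day 1 mouse 1 or mouse 2, and over the whole period (2.53 ± 0.38, adjusted p = 7.12e-07). C6 stayed low until weaning, at 0.756, 0.539 and 0.605 FPKM at GD17.5 and 2.16, 1.51 and 3.6 at Day 25. It was then at 12, 18.6 and 21.7 FPKM at Day 30, 35, 46.8 and 26.3 at Day 45 and 98.1, 70.7 and 53.4 at Day 60. No mouse of Day 30 overlapped a mouse of Day 25 or of Day 45, and all Day 60 mice were above all earlier mice. The difference from Day 25 to Day 60 was 4.46 ± 0.24 (30.6 times in FPKM, adjusted p = 1.66e-14).

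C9, which polymerises into the pore, had its lowest mean at Day 1. It was at 2.18, 2.09 and 2.01 FPKM at GD17.5, 0.854, 1.65 and 0.643 at Day 0 and 0.505, 0.487 and 0.521 at Day 1. The 3 newborn mice were below the fetal mice (-0.63 ± 0.22, adjusted p = 0.0193), although the call was lost with upper quartile scaling (-0.43, adjusted p = 0.0892) and without GD17.5 mouse 1 or Day 0 mouse 1 or mouse 3. With the libraries that held muscle or pancreas transcripts left aside the difference was -0.22, which cannot be weighed with 1 Day 0 mouse. From there C9 was at 9.47, 8.89 and 11.4 FPKM at Day 10, 30.2, 33 and 29.3 at Day 20, 43.4, 27.4 and 53.3 at Day 25 and 228, 216 and 147 at Day 60. The mean at Day 60 was 391 times that at Day 1, the widest range of the members for which such a ratio could be given. C9 rose from Day 25 to Day 60 by 2.25 ± 0.22 (adjusted p = 1.38e-08). Against Serpinc1, the hepatocyte gene of antithrombin, the ratio of C9 was 0.00088 ± 0.000172 at Day 1, 0.0382 ± 0.00847 at Day 25 and 0.196 ± 0.0646 at Day 60, and that of C6 was 0.00222 ± 0.00077 at Day 25 and 0.0742 ± 0.0309 at Day 60 (mean ± SD, n = 3).

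**Figure D4:**
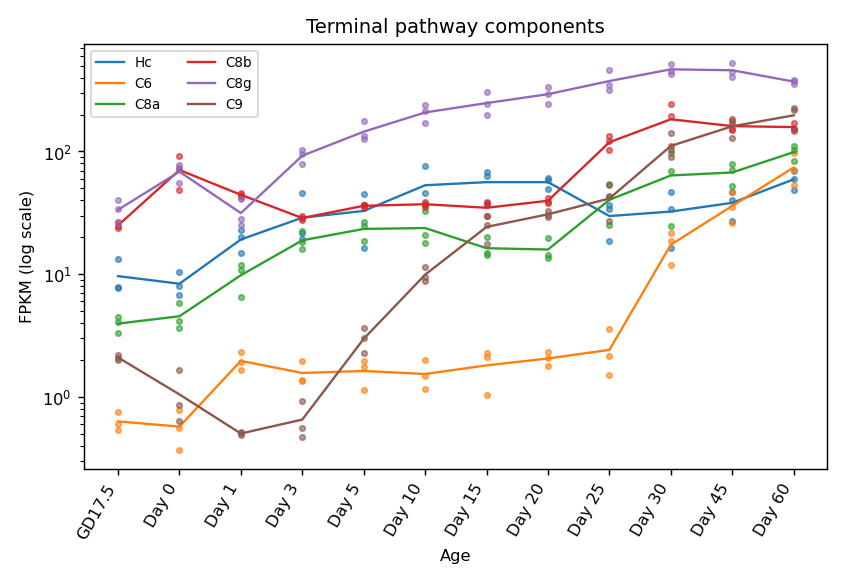
FPKM (vertical axis, log scale) of the 6 terminal components Hc, C6, C8a, C8b, C8g and C9 at the 12 ages; points are mice and lines join the means of 3 mice. C6 stays at or below 2.42 FPKM on average up to Day 25 and reaches 74.1 at Day 60, while C9 passes from 0.504 at Day 1 to 197.

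C8 is built from an alpha, a beta and a gamma chain whose genes moved together at some steps and apart at others. C8b, on the plus strand beside C8a on chromosome 4, was at 24.6, 23.7 and 26.7 FPKM at GD17.5, 72.7, 91.2 and 48.3 at Day 0, 27.8, 28.7 and 29.6 at Day 3, 39.1, 41.9 and 38.1 at Day 20 and 122, 102 and 133 at Day 25. It thus rose at birth (1.42 ± 0.19, adjusted p = 7.17e-07), fell by Day 1 (-0.61 ± 0.19, adjusted p = 0.0161) and rose over weaning (1.55 ± 0.19, adjusted p = 1.07e-06). The fall by Day 1 was lost without Day 0 mouse 2 or Day 1 mouse 1 and with TPM scaling (-0.52, adjusted p = 0.0534). C8a was at 5.84, 4.19 and 3.62 FPKM at Day 0, 12, 10.9 and 6.52 at Day 1, 14.3, 19.8 and 13.6 at Day 20, 42.3, 25 and 53.9 at Day 25 and 111, 102 and 83.1 at Day 60. It did not follow C8b at birth (0.15 ± 0.33, adjusted p = 0.727) and rose over weaning by 1.24 ± 0.33 (adjusted p = 0.0167) and from Day 25 to Day 60 by 1.33 ± 0.33 (adjusted p = 0.00986). These later calls were lost without Day 20 mouse 1 or 3 or Day 25 mouse 1 or 3 for weaning, and without Day 25 mouse 2 or Day 60 mouse 1 afterwards.

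C8g, a lipocalin rather than a pore protein by family, was the most abundant chain from Day 3 on. It was at 26, 34.3 and 40.3 FPKM at GD17.5, 55, 72.5 and 78.1 at Day 0, 25.2, 41 and 28.4 at Day 1 and 521, 431 and 450 at Day 30. It rose at birth (1.02 ± 0.20, adjusted p = 0.000121) and fell by Day 1 (-1.11 ± 0.20, adjusted p = 0.000122). C8g overlaps Fbxw5 on the other strand, so reads of the pair cannot be told apart. Per kilobase, C8b exceeded C8a 15.9 ± 5.12 times at Day 0, 1.55 ± 0.282 times at Day 3 and 1.62 ± 0.183 times at Day 60, and C8g exceeded C8a 19 ± 5.25 times at Day 20 and 3.82 ± 0.646 times at Day 60 (mean ± SD, n = 3). The mice of Day 0 stood above those of Day 3 in the ratio of C8b to C8a, and the mice of Day 20 above those of Day 60 in that of C8g to C8a.

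**Figure D5:**
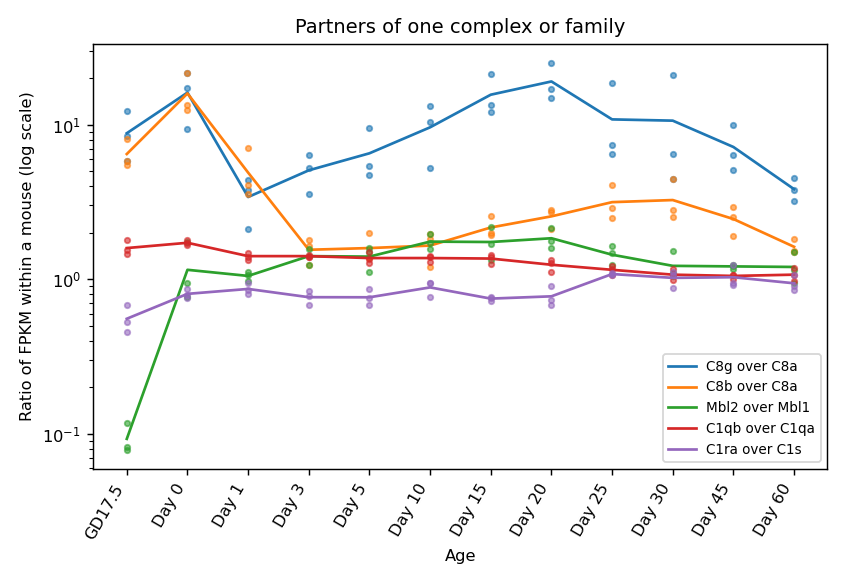
Ratio of the FPKM of 2 members within a mouse (vertical axis, log scale) for partners of one complex or family at the 12 ages; points are mice and lines join the means of 3 mice. C8b over C8a drops from 15.9 at Day 0 to 1.55 at Day 3, Mbl2 over Mbl1 goes from 0.0928 at GD17.5 to 1.15 at Day 0, and C1ra over C1s stays between 0.555 and 1.08.

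All 4 soluble inhibitors were higher at Day 60 than at GD17.5, with timing that differed among them. C4bp, which binds C4b and limits the classical convertase, had the largest difference between fetal and adult liver on the log2(FPKM + 1) scale. It went from 2.38, 2 and 2.05 FPKM at GD17.5 to 254, 239 and 260.2 at Day 60 (6.33 ± 0.21, adjusted p = 7.27e-21). This rise was 117 times in FPKM, as was that of C6. C4bp was still at 12.1, 5.38 and 5.63 FPKM at Day 0 and climbed through suckling to 172, 164 and 166 at Day 20. Serping1, the C1 inhibitor, was the most abundant inhibitor before birth, at 55.2, 57.8 and 60.4 FPKM at GD17.5, 239.7, 206 and 282 at Day 0 (2.04 ± 0.15, adjusted p = 1.31e-11) and 348, 352 and 388 at Day 60. Clu, clusterin, which binds terminal complexes in plasma, went from 24.4, 24.7 and 22 FPKM to 107, 70.3 and 70.7 at Day 0, 114, 160.2 and 125 at Day 1 and 745, 697 and 687 at Day 60. It passed the test at birth (1.74 ± 0.17), on the first day (0.69 ± 0.17, adjusted p = 0.00261) and overall (4.85 ± 0.17). Cfi, the protease factor I that degrades C3b and C4b, was at 15, 32.4 and 18 FPKM at GD17.5, 68, 55.4 and 27.5 at Day 0 and 185, 201 and 186 at Day 60. Fetal and newborn mice overlapped for Cfi (1.15 ± 0.29, adjusted p = 0.00148), and its rise by Day 1 (0.87, adjusted p = 0.0218) was lost without Day 0 mouse 3 (0.50, adjusted p = 0.222) and without Day 1 mouse 1 or mouse 3.

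Apart from Cd59a, receptors and membrane inhibitors were scarce throughout. The 4 tested were highest within GD17.5 to Day 5, as were 78.7% of all tested genes. C5ar1, the receptor of the C5a fragment on myeloid cells, was at 1.07, 1.08 and 1.16 FPKM at GD17.5, 1.62, 2.13 and 1.42 at Day 0 and 0.202, 0.176 and 0.133 at Day 60. It rose at birth (0.37 ± 0.10, adjusted p = 0.00243) and was lower in adult than in fetal mice (-0.84 ± 0.10, adjusted p = 6.14e-09). At values this low, differences on the log2(FPKM + 1) scale understate the ratio, which was 0.155 between Day 60 and GD17.5. C3ar1, the receptor of C3a, was at 1.3, 1.16 and 1.25 FPKM at Day 5 and 0.411, 0.428 and 0.389 at Day 60, and its difference between GD17.5 and Day 60 did not pass (-0.14 ± 0.10, adjusted p = 0.221). Cr2, the receptor of C3d on B cells and follicular dendritic cells, was at most 0.0299 FPKM in any mouse, while the 5 B cell markers summed to 48.9 to 60.9 FPKM at Day 1. Cd46 was at most 0.0906 FPKM.

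Cd59a, the mouse inhibitor of the membrane attack complex that most cells carry, was the most abundant of this class. It was at 16.5, 20.2 and 21.3 FPKM at GD17.5, 9.02, 8.96 and 6.46 at Day 0, 13.2, 12.9 and 13.4 at Day 1, 10.1, 15.9 and 13 at Day 20 and 5.78, 8.96 and 6.68 at Day 25. It fell at birth (-1.16 ± 0.22, adjusted p = 7.86e-05), alongside all 6 erythroid markers, whose part in the fall was not tested. It fell again over weaning (-0.78 ± 0.22, adjusted p = 0.0248), a call lost without any one of Day 20 mouse 2 or 3 or Day 25 mouse 1 or 3. Its rise from Day 0 to Day 1 (0.65, adjusted p = 0.0255) was lost without Day 0 mouse 3 or any Day 1 mouse. Cd55, which speeds the decay of convertases, was at 2.93, 2.42 and 1.99 FPKM at GD17.5, 1.05, 1.14 and 1.25 at Day 0 and 0.764, 1.04 and 0.568 at Day 60, below the fetal mice at both ages (-0.67 ± 0.20 and -0.94 ± 0.20, adjusted p = 0.00579 and 0.000109). The call at Day 0 was lost with the trend with length and GC content removed (-0.18, adjusted p = 0.258). With the libraries that held muscle or pancreas transcripts left aside the difference was -0.68, which cannot be weighed with 1 Day 0 mouse. Near copies of both exist, Cd59b and Daf2.

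At birth, 17 of 32 members were higher at Day 0 than at GD17.5 (background 13.1% of all tested genes) and 4 were lower (background 41.4%). The higher members were 15 of the 20 hepatocyte-made genes with C5ar1 and Colec11, and the lower ones were C9, Fcna, Cd55 and Cd59a. In the same comparison all 5 hepatocyte markers were higher (median 2.75), all 6 erythroid markers were lower (median -1.64) and 3 of 6 acute phase markers (Hp, Lcn2 and Orm1) were higher, the acute phase sum being 208 to 375 FPKM in fetal mice and 1386 to 2294 at Day 0. Their part in the rise of the members was not tested. The call of Colec11 (0.43, adjusted p = 0.0358) was lost without any one of 4 libraries, GD17.5 mouse 1 or 3 or Day 0 mouse 1 or 2. Hc, C6, C8a and Masp1 did not pass, so among the terminal components only C8b and C8g rose. Without Day 0 mouse 3, 2 members were lower. With the 6 libraries that held the most muscle or pancreas transcripts left aside, 1 Day 0 mouse was kept. Its spread is then assumed to be that of the other ages, and it still held 462 FPKM of pancreas transcripts. C1s differed there by 1.01, which cannot be weighed with 1 mouse.

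Between Day 0 and Day 1, at the start of suckling, 13 members were higher (background 23.7%) and 3 were lower (background 7.88%). The higher members were 5 of the 6 macrophage- or myeloid-made genes, 6 of the 20 hepatocyte-made genes (Hc, C6, C8a, Cfi, Cfb and Clu), Colec11 and Cd59a, and the lower ones were C8b, C8g and Fcnb. C3 was at 656, 711 and 533 FPKM at Day 1, above all Day 0 mice, without passing the test (0.57 ± 0.32, adjusted p = 0.172). With each mouse left out in turn, 8 to 14 members were higher, and 8 were higher without Day 0 mouse 3. That library held 4618 FPKM of exocrine pancreas transcripts, whose part in the count was not tested. C8a (0.94, adjusted p = 0.0304) was lost without Day 0 mouse 2 or 3 or without Day 1 mouse 1 or 2. With the libraries that held muscle or pancreas transcripts left aside, 1 Day 0 mouse was kept, so calls cannot be weighed there. C1qb differed by 0.82 in that setting. With each library's trend with length and GC content removed, 7 were lower, C4bp, C9, Cd55 and Serping1 being added.

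Over weaning, between Day 20 and Day 25, 2 members were higher (background 3.94%) and 1 was lower (background 3.26%), namely C8a and C8b against Cd59a. Of the acute phase markers 4 of 6 were higher (Orm1, Orm2, Saa1 and Saa2), and their part in these differences was not tested. With the trend with length and GC content removed 5 were lower, Hc (-0.80), Colec11 (-0.63), Cfp (-0.53) and C2 (-0.46) being added. After weaning, between Day 25 and Day 60, 3 members were higher (background 3.24%), all terminal components: C6, C9 and C8a. No member was lower by limma after adjustment (background 4.18%), 1 was at an unadjusted p under 0.05, and 1 was lower with the TPM scaling, Cfp in both cases. The other hepatocyte-made genes did not pass, with differences between -0.36 (Mbl2) and 1.01 (Hc, adjusted p = 0.11). With the trend with length and GC content removed, C2 (0.43), Clu (0.60) and Hc (0.72) passed in addition.

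Of 23 further complement symbols described for comparison, 17 were measured and 15 tested. Between GD17.5 and Day 60, 7 of them were higher and 6 were lower (18.6% and 56.4% of all tested genes). The higher ones were the plasma regulator Vtn (3.54 ± 0.16), the carboxypeptidase N subunits Cpn1 (0.41) and Cpn2 (2.77), the near copies C1rb, Gm5077 and C4a, and Vsig4 (2.32 ± 0.25), a complement receptor of Kupffer cells. The lower ones were the integrin chains Itgam (-1.91) and Itgb2 (-2.24) of complement receptor 3, Cr1l (-0.52), Cd59b (-0.43), Cd93 (-0.87) and C1qbp (-1.38). Under upper quartile scaling Cr1l turned to 0.02 (adjusted p = 0.901) and Cd59b no longer passed (-0.11, adjusted p = 0.29), nor did Cd93 with the trend with length and GC content removed (-0.01, adjusted p = 0.948). Cpn1 was lost without GD17.5 mouse 1 or Day 60 mouse 3. Vtn, vitronectin, was more abundant than C3 at both ages around birth, at 154 ± 22.9 FPKM at GD17.5 and 1194 ± 103 at Day 0 (mean ± SD, n = 3). Vsig4 rose at birth (1.17 ± 0.25) and again by Day 1 (1.45 ± 0.25, adjusted p = 7.19e-05), when the C1q chains rose too. Over weaning C1qbp alone of these rose (0.44 ± 0.11, adjusted p = 0.0107), a call lost without Day 20 mouse 1 or Day 25 mouse 2 and with the libraries that held muscle or pancreas transcripts left aside (adjusted p = 0.0671). Set against Day 60, all 15 passed at one or more ages, as did 90.7% of all tested genes.

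By order of level, C3 led at GD17.5 (73.8 ± 15.4 FPKM), followed by Serping1 (57.8 ± 2.61), C1qb (53.1 ± 12.5) and C1qc (41.5 ± 10.3), neighbours whose spreads met (mean ± SD, n = 3). At Day 60 the order was C3 (1601 ± 218), Clu (709.7 ± 31), Cfb (419.9 ± 22.7), C8g (371 ± 13.7) and Serping1 (363 ± 22). C3, Clu and Cfb were then each separated by more than their spreads, C8g and Serping1 were not, and the C1q chains stood at 21.4 to 27.3 FPKM. Before birth 3 of the 8 most abundant members were C1q chains and another was Fcnb, whereas in the adult the 19 most abundant members were hepatocyte-made.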

How the data were processed

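RNA of whole livers was prepared with a poly-A, not strand-marking TruSeq v2 kit and sequenced as paired ends of 100 bases. Per the submitters' processing notes and the study's methods, reads were mapped to NCBI37/mm9 with TopHat 1.2.0, and the FPKM values deposited by the authors, 1 per gene symbol and mouse, came from Cufflinks 1.0.3 with Ensembl annotation version 65. Values were taken as log2(FPKM + 1), the 11149 genes whose mean reached 1 FPKM at some age were kept, and limma 3.58.1 in R 4.3.3 was fitted with 1 mean per age over all 36 mice and a mean-variance trend. Tests are two-sided, Benjamini-Hochberg adjusted over all genes within a comparison (over genes and the 11 comparisons with Day 60 together for any age), with a threshold of 0.05. Fits were tested on simulated data. Animals differ between ages and replicate numbers do not pair them.

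The members, their classes and roles, the markers and the further complement genes were chosen with earlier results of these data known, and all 34 measured members are described. Results for some further complement genes are not reported here. Alternatives were upper quartile and TPM scaling, a pseudocount of 0.1, no filter, a filter at 5 FPKM, no mean-variance trend, the replicate number as a block and each mouse left out. Added after seeing the data was leaving aside 6 libraries (muscle markers over 100 or pancreas markers over 3000 FPKM). Also added then was removing each library's quadratic trend with transcript length and GC content. It was fitted on 4697 genes of at least 10 FPKM (97.7% of tested genes had a length). This trend was not taken relative to the mean of each age. Its removal therefore also takes out differences between ages that go with length or GC content. The median of all genes between GD17.5 and Day 60 moved from -0.56 to -0.10 with it. Calls lost or gained under it cannot be assigned to the libraries alone. Positions and lengths came from GENCODE M1 (mm9), promoters from RefSeq (GRCm38.p6). Python 3.11.15, numpy 2.4.6, pandas 2.3.3 and matplotlib 3.10.9 were used.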

Additional observations from a re-analysis of the deposited data

How the results depend on the processing

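Of 73 pairs of member and comparison that passed the test, 49 passed under every alternative, 24 lost the call under at least one and 0 changed direction. Single mice decided 17 of these, and leaving aside the libraries with muscle or pancreas transcripts 16. Upper quartile scaling also lost C1qb by Day 1 (0.65, adjusted p = 0.0789), Cfi and Cd59a by Day 1 and Fcna at birth, and removing the trend with length and GC content lost C1qb, C1qc and Fcna between GD17.5 and Day 60, Cfi and Cd59a by Day 1 and Colec11 at birth. With each mouse left out in turn, the members different from Day 60 in any age numbered 31 to 32. Between GD17.5 and Day 60, 20 to 22 were higher and 7 to 8 lower; at birth 15 to 17 higher and 2 to 4 lower; by Day 1, 8 to 14 higher and 2 to 3 lower; over weaning 1 to 3 higher and 0 to 3 lower; and after weaning 2 to 4 higher and 0 lower. The log2 ratios of the class sums between Day 60 and GD17.5 were 3.82 to 3.95 (hepatocyte-made), -1.28 to -0.95 (macrophage- or myeloid-made) and -1.22 to -0.81 (receptors and membrane regulators), against 3.87, -1.07 and -1.04 with all mice. Upper quartile scaling moved these to 4.48, -0.47 and -0.43 and left 4 members lower between GD17.5 and Day 60 and 2 lower at birth. Members lower over weaning numbered 2 with a pseudocount of 0.1, with a filter at 5 FPKM and without the mean-variance trend. TPM scaling gave 1 member lower after weaning. With the 6 libraries left aside, 0 were lower over weaning. That setting kept 1 Day 0 mouse, so the calls lost at birth and by Day 1, counted among the 16, cannot be weighed. With the trend with length and GC content removed, 5 were lower between GD17.5 and Day 60 and 7 lower by Day 1. Under the same removal 5 were lower over weaning and 6 higher after weaning. That removal also takes out differences between ages that go with length or GC content. Over weaning, 1 member was higher without Day 20 mouse 1 or 3 or Day 25 mouse 1 or 3. There 0 were lower without Day 20 mouse 3 or Day 25 mouse 1, 3 without Day 30 mouse 1 or Day 60 mouse 1, and 2 without any one of Day 0 mouse 1 or 3, Day 15 mouse 1 or 3, Day 25 mouse 2, Day 30 mouse 2, Day 45 mouse 3 or Day 60 mouse 3. Without Day 0 mouse 3, 2 were lower at birth and 8 higher by Day 1. The cause was not tested. Low genes are limited by depth, which the deposited values give per library only as relative depth.

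Mice with the same number deviated together only weakly (median correlation of deviations 0.126 over 198 pairs, from -0.68 to 0.829), and they are different animals, so the numbers do not pair them. With the replicate block, 2 members were lower over weaning, and none of the 73 calls was lost.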

Other observations

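C4b and its near copy C4a moved against each other among the mice of Day 60. C4a was at 25.9, 15.8 and 72.4 FPKM there, beside 198, 193 and 132 for C4b, whereas the 2 genes together came to 224, 209 and 204 FPKM. Over all ages the ratio of C4b to C4a within a mouse ran from 1.76 (Day 30) to 16.3 (Day 3), and all mice of Days 15, 20, 25 and 45 lay between 1.79 and 2.42. C1ra and C1rb, which overlap, were apart in a smaller range, with C1ra at 1.47 (Day 15) to 5.39 (GD17.5) times C1rb over all mice. Why these ratios spread was not tested.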
